A study of Mus musculus with 12 samples.

Results

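The comparison set 3 arrays of primary mouse microglia that had received oligomeric Aβ42 and AE1-329 together against 3 arrays that had received neither agent, and described all 19938 genes measured. These are 6 of the 12 arrays of the study, chosen by their labels alone. Microglia, the resident macrophages of the brain, came from C57BL/6J pups of postnatal day 7, where CD11b microbeads picked them out of the dissociated brain, and no allele or transgene is named for any group. They were cultured for 3 days in medium with serum and then treated for 6 h. The combined group received Aβ42 at 10 µM and AE1-329 at 100 nM. The vehicle group received the solvents of the agents, 0.4% DMSO and 0.001% ethanol. The remaining groups of 3 arrays each, Aβ42 at 10 µM with ethanol and AE1-329 at 100 nM with DMSO, served to ask which genes the agents moved together, moved against each other or moved by other than the sum. Each of 3 litters gave 1 array to every group, and the same replicate number is taken here to mark cells of the same litter. The cells are pooled over the pups of a litter and had been removed from the brain, which limits them as a model of microglia in tissue.

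Aβ42 is the peptide that forms the plaques of Alzheimer's disease, and its oligomers are known to engage pattern recognition receptors on macrophages, upstream of the transcription factor NF-kB and of interferon regulatory factors. AE1-329 is an agonist of EP4, a receptor of prostaglandin E2 that couples to the stimulatory G protein and raises cyclic AMP, which acts through protein kinase A and the transcription factor CREB. In macrophages, cyclic AMP is known to restrain the production of some cytokines and chemokines and to raise others. A gene in both pathways can therefore be moved by either agent, in the same or in opposite directions.

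Values are log2 expression, so a difference of 1 is a change of 2-fold. A change is a difference between 2 group means with the standard error that limma gave it from all 12 arrays, with p adjusted by Benjamini-Hochberg over all genes and a threshold of 0.05. The fit held no term for litter, so differences between litters are part of these standard errors. Array medians lay between 6.97 and 7.05. The 13 measured markers of microglia and myeloid cells had a mean level between 11.28 and 11.30 in the vehicle arrays and between 11.12 and 11.16 in the combined arrays. Means of the markers of other cells lay lower over the same 6 arrays. They ran from 6.90 to 7.13 for 12 astrocyte markers and from 7.32 to 7.58 for 10 oligodendrocyte lineage markers. For 12 neuron markers they ran from 6.19 to 6.43, and for 7 lymphocyte and erythroid markers from 5.93 to 6.17. The oligodendrocyte genes Mbp and Cnp had vehicle means of 8.95 and 9.60, above the array medians. No value on this scale is 0, so absence of a marker cannot be read from it. Of these markers the astrocyte gene Gja1 rose (by 0.64 ± 0.20), the oligodendrocyte genes Mbp (-0.27 ± 0.062) and Cnp (-0.42 ± 0.11) fell, and 0 neuron and 0 lymphocyte or erythroid markers passed. The change of Gja1 did not pass in 8 of the alternatives, without combined replicates 1 (adjusted p = 0.133) and 2 (0.131) among them, that of Cnp did not pass in the 6 arrays alone (0.0557), and with the litter as a block 1 neuron marker, Snap25, was lower. Of 13 endothelial and mural markers (means from 7.01 to 7.21) Pecam1 rose (0.92) and Flt1 and Kdr fell (-0.50 and -0.50). Of 10 markers of monocytes and border macrophages (7.51 to 7.64) Ms4a7 and Pf4 rose (0.52 and 0.47). Of 12 neutrophil markers (6.48 to 6.71) Lcn2 rose (1.95), S100a8 rose by 0.20 with a call lost in 14 alternatives, and Csf3r and Cxcr2 fell (-0.34 and -0.30, the latter not without combined replicate 2). The part of other cells in the changes below was not tested. In bulk arrays fewer cells of a type and less RNA per cell cannot be told apart. The median standard deviation between arrays was 0.109 in vehicle and 0.066 in the combined group. With 3 arrays in a group, precision is limited by their number.

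Some arrays stood apart from their group. AE1-329 replicate 3 lay more than 1 log2 unit above both other AE1-329 arrays in 16 genes and below both in 13, and vehicle replicate 1 did so in 18 and 1. In the remaining arrays these counts were between 0 and 12. In AE1-329 replicate 3 the activation and interferon genes Cd69 (4.75, 4.89 and 7.40 in AE1-329 replicates 1, 2 and 3), Acod1 (7.15, 7.48 and 9.65), Ifit1 (7.58, 8.06 and 9.86) and Ccl5 (8.11, 8.59 and 10.03) were high. This array enters the standard errors of every comparison and the sum of the single changes, and without it the combined changes of these genes had smaller standard errors, 0.085 for Cd69, 0.12 for Acod1, 0.24 for Ifit1 and 0.14 for Ccl5.

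Together the agents raised 1849 genes, 9.27% of those tested, and lowered 2372, 11.9%. At least 2-fold changes were more often increases, with 330 genes higher and 164 lower. In 4210 of the 4221 genes that passed, the change had the same direction in all 3 litters. These genes were chosen by a test of the same arrays, so such agreement was largely set by that choice. The 3 combined arrays lay wholly above or wholly below the 3 vehicle arrays in 6044 genes, 30.3%, of which 2660 were higher. The median change over all genes was -0.007.

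The genes with the highest change included chemokine, cytokine and receptor genes. Cxcl2, a chemokine that attracts neutrophils, lay at 5.63, 5.82 and 5.35 in vehicle and at 12.59, 12.39 and 12.49 in the combined arrays of litters 1, 2 and 3. All combined arrays were far above all vehicle arrays, by 6.89 ± 0.10 or 118-fold (limma, adjusted p = 5.32e-13). Clec4e, a C-type lectin receptor that senses microbial glycolipids and dead cells, went from 5.85, 5.79 and 6.07 to 12.54, 12.51 and 12.56, a change of 6.63 ± 0.11 (99.3-fold). Il1b, which encodes the fever cytokine interleukin-1 beta, went from 6.76, 6.39 and 6.63 to 12.74, 12.57 and 12.68, a change of 6.07 ± 0.16 (67.1-fold). For both genes the groups were separated by several log2 units and the combined arrays differed from each other by less than the vehicle arrays did. Cd69, an early activation antigen, rose by 6.05 ± 0.49, and Acod1, whose product makes itaconate, by 5.56 ± 0.46.

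The acute-phase gene Saa3 rose by 5.41 ± 0.18, the chemokine gene Ccl5 by 4.69 ± 0.34, and Il12b and Il6, both cytokine genes, by 4.63 ± 0.14 and 4.38 ± 0.12. Tnip3, whose product binds the NF-kB inhibitor A20, rose by 4.00 ± 0.17. Ptges encodes the inducible terminal synthase of prostaglandin E2, the natural ligand of EP4. It lay at 8.15, 7.71 and 7.62 in vehicle and at 12.67, 12.57 and 12.62 with both agents, so that every combined array exceeded every vehicle array, and the rise of 4.79 ± 0.11 was 27.7-fold. Spic, an Ets family transcription factor of iron-recycling macrophages, rose from 5.60, 5.53 and 5.82 to 10.38, 10.40 and 10.47, that is by 4.77 ± 0.13. Several of these genes, Cxcl2, Clec4e, Cd69 and Spic among them, lay below the array medians in vehicle. Signal over background was not used here, so the fold of such dim genes has no known accuracy.

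**Figure D1:**
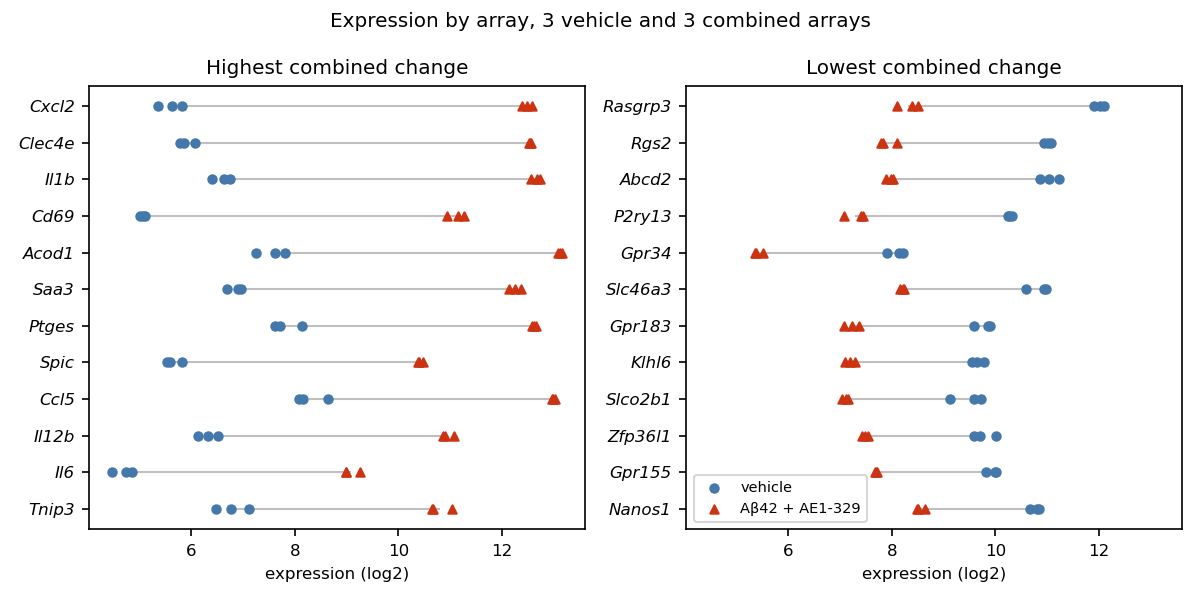
Log2 expression (horizontal axis) of the 12 genes with the highest and the 12 with the lowest combined change, among genes that passed with vehicle and combined arrays apart; circles are the 3 vehicle arrays, triangles the 3 combined arrays and grey lines join the group means. For Cxcl2 the vehicle arrays sit at 5.63, 5.82 and 5.35 in litter order and the combined arrays at 12.59, 12.39 and 12.49, while Rasgrp3 moves the other way by a difference of -3.67.

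The genes with the lowest change included those of receptors, transporters and regulators of signalling. Rasgrp3, an exchange factor that activates Ras and Rap, fell from 12.10, 11.90 and 12.02 to 8.38, 8.10 and 8.51 (difference -3.67 ± 0.094, 12.8-fold lower, adjusted p = 2.61e-11). Its lowest vehicle array lay more than 3 log2 units above its highest combined array. Rgs2, which shortens G protein signalling, changed by -3.10 ± 0.096, and Abcd2, a peroxisomal fatty acid transporter gene, by -3.08 ± 0.099. P2ry13, an ADP receptor, and Gpr34, a lysophosphatidylserine receptor, are both part of the resting microglial signature. P2ry13 fell from 10.33, 10.27 and 10.24 to 7.07, 7.41 and 7.45 (-2.97 ± 0.090), and Gpr34 from 8.21, 7.92 and 8.14 to 5.37, 5.37 and 5.52 (-2.67 ± 0.081). Groups that do not overlap were a condition for the 12 lowest genes described here and for the 12 highest above. The oxysterol receptor gene Gpr183 (-2.56 ± 0.092), the lysosomal transporter gene Slc46a3 (-2.63 ± 0.10), the organic anion transporter gene Slco2b1 (-2.38 ± 0.12) and Zfp36l1, which encodes an mRNA decay factor (-2.29 ± 0.14), also fell. Klhl6, Gpr155 and Nanos1 completed the 12, with differences of -2.47, -2.24 and -2.22.

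Gene lists described the rest of the response, beside the background of 9.27% higher and 11.9% lower over all genes and an overall median of -0.007. All 20 measured NF-kB targets rose, with a median change of 2.55. Nfkbie, an inhibitor that holds NF-kB in the cytoplasm, went from 7.23, 7.55 and 7.52 to 10.45, 10.52 and 10.52 (3.06 ± 0.076), and its relative Nfkbiz from 8.42, 8.10 and 8.37 to 11.57, 11.42 and 11.38 (3.16 ± 0.084). Both were higher in every combined array than in any vehicle array. Tnfaip2, a gene induced by tumour necrosis factor, rose by 2.71 ± 0.070. Of 24 cytokine genes 14 rose, 1 fell and 9 did not pass (median 0.32). Tnf, the gene of tumour necrosis factor, went from 9.32, 9.36 and 9.62 to 13.09, 12.97 and 12.92, with no overlap and a rise of 3.56 ± 0.087. Il10, an anti-inflammatory cytokine gene, lay at 4.97, 4.76 and 4.93 in vehicle and 5.57, 5.23 and 5.99 with both agents, a smaller rise of 0.71 ± 0.14 (adjusted p = 0.00283) that did not overlap either. The cytokine gene that fell was Il15 (-0.39 ± 0.12), named here after its value was seen, as is every member given below for a count of 5 or fewer, and it did not pass in the 6 arrays alone or without combined replicates 1 or 2 or vehicle replicates 1 or 3.

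Of 22 chemokine ligand genes 14 rose, 1 fell and 7 did not pass (median 0.66). Cxcl1 and Cxcl3, neutrophil attractants like Cxcl2, rose by 3.56 ± 0.095 and 3.63 ± 0.14. Ccl4, another chemokine gene, rose by 1.61 ± 0.098. Ccl2, which attracts monocytes, lay at 10.07, 10.16 and 10.37 in vehicle and at 10.62, 10.97 and 10.98 with both agents, a modest rise of 0.66 ± 0.16 with adjacent but separate groups. Cxcl14 fell by 0.72 on the log2 scale. Among 13 chemoattractant receptor genes 3 rose and 4 fell. Cxcr4, the receptor of CXCL12, fell by 1.70 (from 10.90, 10.96 and 10.92 to 9.20, 9.29 and 9.21), and Cx3cr1, the receptor through which microglia sense neuronal fractalkine, fell from 11.97, 11.84 and 11.70 to 10.68, 10.60 and 10.49 (-1.25 ± 0.097). The receptor gene Ccrl2 (2.58 ± 0.087) and the anaphylatoxin receptor gene C5ar1 (0.62 ± 0.054) rose.

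The promoters of Cxcl2 and Cxcl3 are shown because both genes rose strongly and both hold the same short match to the NF-kB consensus close to the start. The sequences are the 250 bases before the annotated start, from RefSeq on build GRCm38.p6 and read 5′ to 3′ on the gene's strand, which is plus for both, at chr5:90903649-90903898 (Cxcl2) and chr5:90785851-90786100 (Cxcl3), with the match in capitals.
Cxcl2: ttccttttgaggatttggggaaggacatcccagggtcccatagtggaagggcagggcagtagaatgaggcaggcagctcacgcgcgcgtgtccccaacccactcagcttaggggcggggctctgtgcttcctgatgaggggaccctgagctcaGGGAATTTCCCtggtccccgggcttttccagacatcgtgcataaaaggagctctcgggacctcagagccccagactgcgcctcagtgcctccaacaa
Cxcl3: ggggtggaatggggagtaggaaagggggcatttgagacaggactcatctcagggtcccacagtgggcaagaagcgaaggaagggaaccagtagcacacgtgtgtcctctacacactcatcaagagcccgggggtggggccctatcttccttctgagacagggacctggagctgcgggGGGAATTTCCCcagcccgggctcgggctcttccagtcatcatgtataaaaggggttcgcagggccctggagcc
Counting back from the start, the capitals cover positions -97 to -87 in Cxcl2 and -73 to -63 in Cxcl3, and each stretch holds 2 overlapping matches on either strand. The consensus occurred in 8.19% of the promoters of the genes tested, and in 11 of 21 promoters found for 17 of the NF-kB targets. A match is only a description of the sequence. No gene met the first rule for promoters to print, so these 2 and the 2 given further on were chosen after their values and sequences were seen.

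Interferon-stimulated genes rose in part. Among 30 type I interferon-stimulated genes 13 rose, 0 fell and 17 did not pass (median 0.52). With the litter as a block 24 rose, and without combined replicate 3 or vehicle replicate 1 it was 7. Ifit1, an antiviral RNA-binding protein gene, lay at 7.39, 8.07 and 8.42 in vehicle and 9.92, 10.16 and 10.58 with both agents, and Oasl1, a member of the oligoadenylate synthase family, at 7.74, 8.32 and 8.34 and 10.00, 10.23 and 10.56. The combined arrays were higher in every litter, but the vehicle arrays of both genes spread widely, with litter 1 lowest. The changes were 2.26 ± 0.45 and 2.13 ± 0.27. Irf7, the transcription factor that amplifies type I interferon, had the widest vehicle spread of those described, 7.44, 8.35 and 9.04, against 9.09, 9.24 and 9.66. Its groups did not overlap by a margin of under 0.1 log2 units, and its rise of 1.05 ± 0.32 (adjusted p = 0.0316) did not pass in the 6 arrays alone (adjusted p = 0.0866) or without combined replicates 2 (0.0652) or 3 (0.124) or vehicle replicates 1 (0.109) or 2 (0.0559). The whole list showed the same order of litters, with a mean level of 8.24, 8.55 and 8.85 in vehicle and 9.01, 9.17 and 9.53 with both agents. Of 15 genes of interferon-gamma and its GTPases 6 rose and 1 fell. Gbp5, a guanylate-binding protein gene, rose by 3.42 ± 0.25, Cd274, the gene of PD-L1, by 1.38 ± 0.088, and the transcription factor gene Irf1 by 1.02 ± 0.10. Irf8, a lineage factor of microglia, was the member that fell (-1.28 ± 0.063).

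Targets of cyclic AMP and CREB rose with both agents, 20 of 30, while 4 fell and 6 did not pass (median 0.62). Cytip, which tethers cytohesins in leukocytes, went from 6.96, 6.79 and 6.92 to 9.12, 9.28 and 9.39 (2.37 ± 0.10). Crem, a CREB family repressor that cyclic AMP itself induces, went from 7.23, 7.24 and 7.19 to 8.30, 8.12 and 8.36 (1.04 ± 0.096). The cyclic AMP phosphodiesterase gene Pde4b rose by 2.25 ± 0.13 and Cebpb, a macrophage transcription factor gene, by 2.12 ± 0.074. Each of these had combined arrays above all vehicle arrays. The orphan nuclear receptor genes of the Nr4a family rose less. Nr4a1 went from 8.13, 8.09 and 8.13 to 8.90, 8.97 and 8.99 (0.84 ± 0.075), Nr4a2 from 8.32, 7.85 and 7.91 to 8.48, 8.55 and 8.38 (0.45 ± 0.11) and Nr4a3 from 6.29, 6.29 and 6.20 to 6.51, 6.75 and 6.64 (0.37 ± 0.067), with separate groups for all of them. The 4 members that fell were Rgs2 (-3.10), Rgs1 (-1.24), Egr1 (-0.82) and Crtc3 (-0.26).

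In the prostaglandin pathway 5 of 20 genes rose, 4 fell and 11 did not pass. Ptges and Ptgs2, the inducible enzymes that make prostaglandin E2, were the 2 with the highest change. Ptgs2 lay at 9.97, 9.64 and 9.02 in vehicle and at 12.43, 12.24 and 12.26 with both agents, a rise of 2.77 ± 0.23 well beyond the spread of its vehicle arrays. Hpgd, the enzyme that inactivates prostaglandins, fell from 12.70, 12.62 and 12.68 to 10.47, 10.65 and 10.71 (-2.06 ± 0.064), and the thromboxane synthase gene Tbxas1 fell by 0.92. Ptger4, which encodes EP4 itself, fell from 9.26, 9.04 and 9.19 to 8.44, 8.57 and 8.54, with no overlap (-0.65 ± 0.070, adjusted p = 1.35e-05). The genes of the other prostaglandin E2 receptors did not pass, with differences of -0.16 for Ptger1, 0.011 for Ptger2 and -0.006 for Ptger3. The other members that rose were Ptgir (1.14), Abcc4 (0.39) and Ptges3 (0.30), and Hpgds also fell (-0.70).

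Of 19 receptors of the TREM and lectin families 12 rose, 3 fell and 4 did not pass (median 1.55). Trem1, which amplifies inflammatory signals, went from 6.09, 5.87 and 6.01 to 9.02, 9.07 and 9.36 (3.16 ± 0.13), and Trem3 from 6.35, 6.37 and 6.21 to 7.81, 7.83 and 7.94 (1.55 ± 0.062). Both had combined arrays above all vehicle arrays. Pilrb1, an activating paired receptor gene, rose by 2.64 ± 0.081. The members that fell were Sirpa (-0.27), Clec7a (-0.28) and Trem2 (-0.16). Of 27 scavenger and phagocytic receptors 9 rose and 9 fell. Among them Tlr2, a sensor of lipoproteins, went from 9.31, 9.38 and 9.33 to 11.74, 11.74 and 11.83 (2.43 ± 0.049), Olr1, a receptor of oxidized lipoprotein, rose by 3.51 ± 0.13 and Marco by 1.77 ± 0.068, while Fcgr1, the high-affinity IgG receptor gene, fell by 0.99.

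Of 16 genes of antigen presentation and costimulation 9 rose and 1 fell. The costimulatory ligand genes Cd86 and Cd80 went from 8.27, 8.16 and 8.13 to 9.88, 9.93 and 9.91 (1.72 ± 0.069) and from 7.83, 7.17 and 7.32 to 9.77, 9.74 and 9.79 (2.33 ± 0.12). Cd40, the receptor by which T cells license myeloid cells, rose by 2.66 ± 0.076, and Icosl by 2.56 ± 0.088. In motility and adhesion 10 of 21 genes rose and 6 fell. Icam1 and Vcam1, both ligands of leukocyte integrins, rose by 2.91 ± 0.079 and 1.85 ± 0.088, and Spata13, an exchange factor for Rac and Cdc42, by 2.22 ± 0.090. Of 14 enzymes known to degrade amyloid 3 rose, 2 fell and 9 did not pass. The membrane metalloprotease gene Mmp14 rose by 3.04 ± 0.090, Mmp9 by 2.19 ± 0.13 and the endothelin-converting enzyme gene Ece1 by 0.81 ± 0.059, while Plau, the gene of urokinase, fell from 11.50, 11.78 and 11.93 to 9.33, 9.63 and 9.79 (-2.15 ± 0.15), and Ide by 0.28. Complement genes mostly did not pass, with 2 of 16 higher (C5ar1 and Cfp), 1 lower (Cd59a) and 13 not passing, and with the litter as a block a second gene, C1qc, was lower too. Cfp, the gene of properdin, was higher by 0.74 ± 0.21 (adjusted p = 0.0224), which did not pass without combined replicates 2 (adjusted p = 0.0742) or 3 (0.0913) or vehicle replicate 1 (0.0962).

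Oxidase genes and NRF2 targets mostly rose. Of 9 genes of the NADPH oxidase and nitric oxide 8 rose, among them the oxidase subunit genes Ncf4 (1.86 ± 0.14), Ncf1 (1.00 ± 0.068) and Cybb (0.36 ± 0.055), and Nos2, the inducible nitric oxide synthase gene (1.28 ± 0.075). Arg2, the mitochondrial arginase gene, went from 9.49, 9.21 and 9.18 to 11.50, 11.37 and 11.40, a rise of 2.13 ± 0.096 with no overlap. Of 19 targets of the antioxidant factor NRF2 12 rose and 0 fell. Slc7a11, the cystine importer, rose by 3.71 ± 0.11 (13.1-fold), and Srxn1, Txnrd1 and Gsr, which reduce thiols, rose by 1.90 ± 0.051, 1.52 ± 0.068 and 1.38 ± 0.057. The unfolded protein and ATF4 list was divided, with 6 of 20 higher, led by Ppp1r15a (1.10 ± 0.063) and Herpud1 (1.01 ± 0.066), and 5 lower, namely Psat1 (-0.42), Atf3 (-0.29), Edem1 (-0.28), Ddit3 (-0.24) and Sdf2l1 (-0.22). In the 6 arrays alone 2 members were lower, and 3 without combined or vehicle replicate 3.

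In glycolysis and hypoxia 11 of 18 rose and 1, Pfkp (-0.19), fell, while in the 6 arrays alone 7 rose and 0 fell. The glucose transporter gene Slc2a1 rose by 1.24 ± 0.11, the lactate transporter gene Slc16a3 by 1.17 ± 0.11 and Hif1a by 1.11 ± 0.061. Cholesterol biosynthesis genes rose in 11 of 17 cases, with a median of 0.34 and 1 gene, Dhcr7, lower (-0.67). Hmgcs1, an early enzyme of the pathway, lay at 10.34, 10.38 and 10.39 in vehicle and at 10.99, 11.00 and 10.97 with both agents (0.61 ± 0.056). Mvd and Hsd17b7, further enzymes of the pathway, rose by 0.78 ± 0.077 and 0.59 ± 0.065. All 3 enzymes had narrow, separate groups. Of 12 genes of LXR and lipid efflux 5 rose and 3 fell. The cholesterol exporter gene Abca1 went from 11.01, 11.14 and 11.10 to 12.27, 12.29 and 12.25 (1.19 ± 0.050), Ch25h, which makes an oxysterol, rose by 2.67 ± 0.15 and the receptor gene Nr1h3 by 1.48 ± 0.12. Those that fell were Abcd2, Cyp27a1 (-1.09) and Abcg1 (-0.92).

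Feedback inhibitors of signalling mostly rose, 14 of 20, with 4 lower. The NF-kB inhibitor genes Nfkbia and Tnfaip3 rose by 2.54 ± 0.071 and 1.86 ± 0.056, the phosphatase gene Dusp16 by 2.06 ± 0.056 and Irak3, which blocks Toll-like receptor signalling, by 2.19 ± 0.057. The members that fell were Zfp36l1 (-2.29), Zfp36l2 (-0.86), Dusp6 (-0.68) and Tsc22d3 (-0.62). Of 22 genes of alternative activation and repair 8 rose, 2 fell and 12 did not pass. Beside Spic these were led by Socs3 (3.68 ± 0.14), Tgm2, the tissue transglutaminase gene (3.35 ± 0.14), and Il1rn, the interleukin-1 receptor antagonist gene (1.61 ± 0.12), and the members that fell were Irf4 (-0.35) and Stat6 (-0.19), of which 0 passed in the 6 arrays alone. Among 18 trophic factors 3 rose and 3 fell. Vegfa rose by 1.03 ± 0.10, Lif by 0.69 ± 0.14 and Osm by 0.28, and Hgf (-1.72 ± 0.077), Tgfa (-0.38 ± 0.070) and Fgf2 (-0.33) fell.

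Genes of resting microglia fell. Of 19 homeostatic genes 13 fell, 0 rose and 6 did not pass (median -0.28). Beside P2ry13, Gpr34 and Cx3cr1, P2ry12, the ADP receptor that guides microglial processes, fell from 9.50, 8.95 and 9.08 to 7.55, 7.53 and 7.50 (-1.65 ± 0.11), and the transcription factor gene Mef2c from 11.60, 11.48 and 11.47 to 9.89, 9.72 and 9.89 (-1.68 ± 0.061). Both were lower in every combined array. Genes known from disease-associated microglia moved little, with 1 of 22 higher, Cst7 (0.52 ± 0.087), 5 lower and 16 not passing. Those lower were Lpl (-0.38), Cd9 (-0.31), Clec7a (-0.28), Axl (-0.27) and Trem2 (-0.16). Of 27 cell cycle genes 13 fell and 0 rose (median -0.39), and with the litter as a block 23 fell. Ccnd1, the cyclin of G1 phase, fell from 11.30, 11.42 and 11.41 to 10.13, 10.41 and 10.41 (-1.06 ± 0.10), and Ccne2, Mcm2 and E2f1, which act at the start of DNA replication, fell by 1.02, 0.81 and 0.52.

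**Figure D2:**
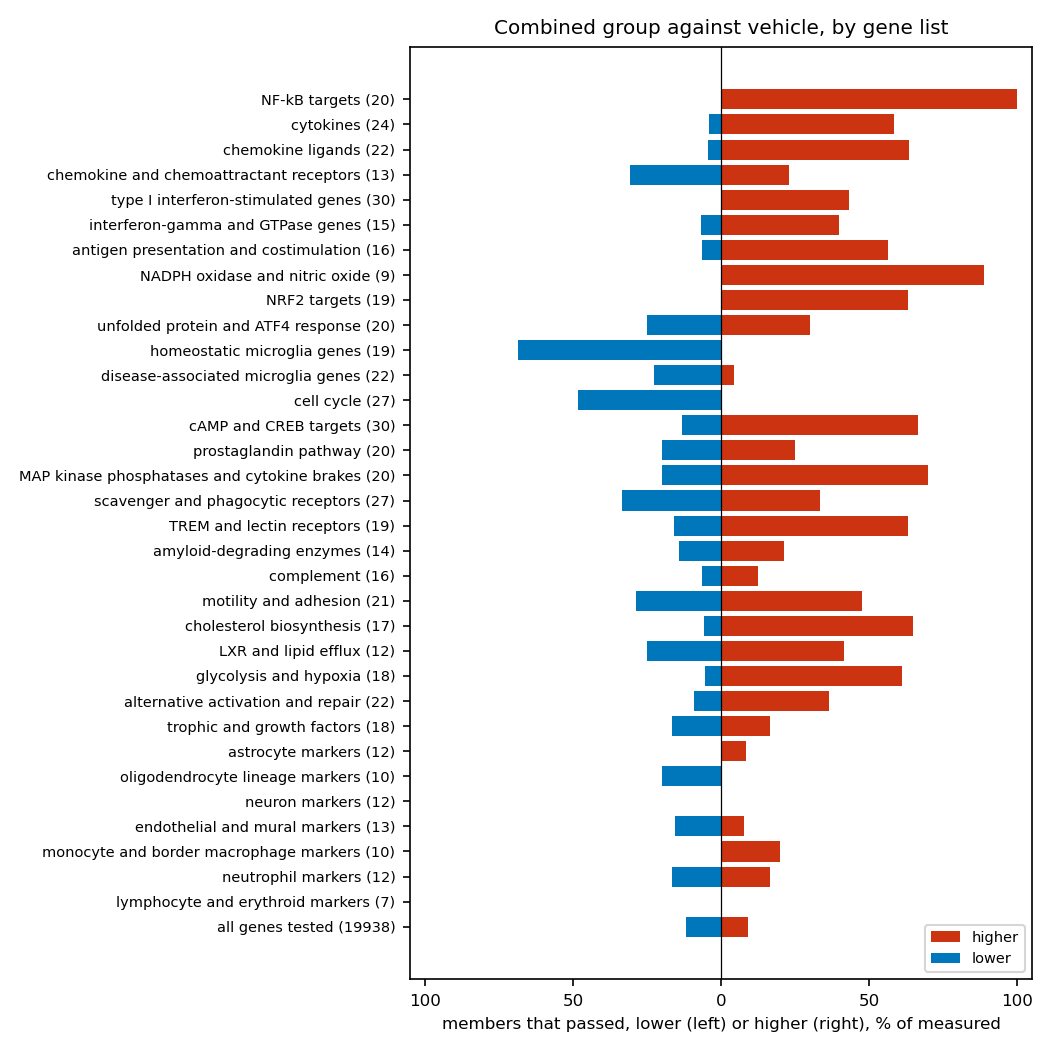
Share of the measured members of each gene list (number in brackets) that passed the combined comparison as lower (bars to the left) or higher (bars to the right), in percent, with all genes tested in the bottom bar. All 20 NF-kB targets were higher and 13 of 19 homeostatic genes lower, against 9.27% and 11.9% of all genes.

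To see what each agent gave to the combined change, 2 averages were taken over the 4 groups. The average Aβ42 effect is the mean of both groups with Aβ42 minus the mean of both groups without it, and the average AE1-329 effect is built in the same way. In this balanced design their errors are uncorrelated, and the combined change is their exact sum. An average effect can also arise from the combined arrays alone, so single changes are given beside it below. The single and combined comparisons share the vehicle arrays, and their values are only set side by side. The average Aβ42 effect passed in 6468 genes (32.4%) and the average AE1-329 effect in 3335 (16.7%). Against vehicle, Aβ42 alone passed in 5100 genes (25.6%) and AE1-329 alone in 2026 (10.2%).

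Both averages passed in the same direction in 679 genes, 320 higher and 359 lower. These are called genes that add up, a name for the shared direction only. The combined change need not equal the sum of the single changes. Of the 320 higher, 46 lay above that sum and 14 below it in the test given further on, and of the 359 lower 33 and 5. Over all genes 1.95% departed in either direction. They passed in opposite directions in 1696 genes, 729 with Aβ42 higher and AE1-329 lower and 967 the other way round. In 4093 genes the Aβ42 average passed and the AE1-329 average did not, in 960 the reverse held, and in 12510 neither passed. Since the combined change is a sum, the genes that add up had the greater changes, with a median of 0.80 for those higher and -0.65 for those lower. The opposed genes had medians of 0.061 and -0.092. Of the 1696 opposed genes 628 still passed in the combined comparison, 282 higher and 346 lower.

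**Figure D3:**
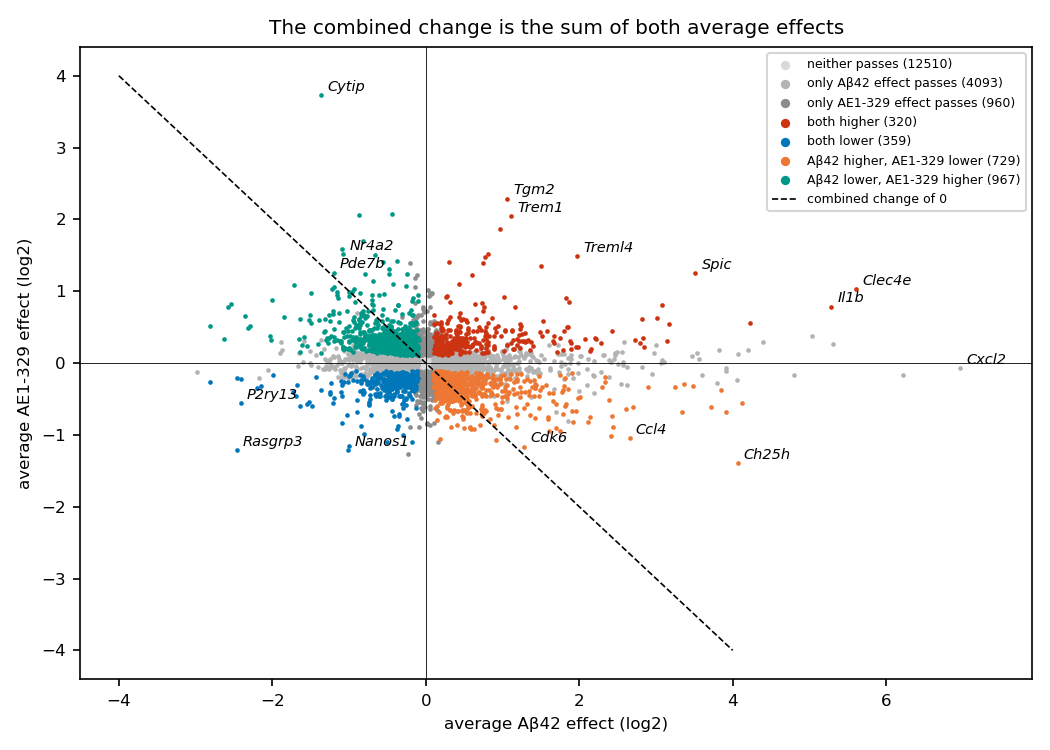
Average Aβ42 effect (horizontal axis) against average AE1-329 effect (vertical axis), in log2 units, for the 19938 genes, coloured by which effects passed, with the number of genes in the key; on the dashed line the combined change is 0. Cxcl2 lies far right with no AE1-329 effect that passed (-0.073), Clec4e and Spic lie in the upper right, and Cdk6 and Pde7b lie beside the dashed line.

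Among the genes that add up as higher, those described have the greatest smaller effect of the 2. Tgm2 lay at 7.50, 8.19 and 7.94 in vehicle, at 9.22, 9.46 and 9.28 with Aβ42, at 10.36, 10.63 and 10.66 with AE1-329 and at 11.17, 11.28 and 11.23 with both. Each agent alone lifted it (1.45 ± 0.14 and 2.67 ± 0.14), and the combined arrays were highest. Trem1 changed by 0.59 ± 0.13 with Aβ42 and by 1.53 ± 0.13 with AE1-329, and by 3.16 ± 0.13 with both. Odc1, the first enzyme of polyamine synthesis, lay at 7.94, 8.42 and 8.74 in vehicle and at 11.03, 11.19 and 11.42 with both agents. It rose by 1.30 ± 0.19 and 1.15 ± 0.19 with the single agents and by 2.85 ± 0.19 with both, close to the sum of 2.45. Treml4, a TREM-like receptor gene of myeloid cells, went from 6.30, 7.00 and 6.98 to 10.08, 10.26 and 10.31, a rise of 3.46 ± 0.15, with single changes of 0.93 ± 0.15 for Aβ42 and 0.44 ± 0.15 for AE1-329, of which the second did not pass. Clec4e and Spic also belong here, with single AE1-329 changes of 1.41 ± 0.11 and 0.45 ± 0.13.

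Further genes of the lists added up as higher. For Cd86 the AE1-329 change (1.29 ± 0.069) was greater than the Aβ42 change, which did not pass (0.19 ± 0.069, adjusted p = 0.063). Cd80 changed by 1.10 ± 0.12 with Aβ42 and by 1.82 ± 0.12 with AE1-329, and Abca1 by 0.42 ± 0.050 and 1.07 ± 0.050. Of the 19 TREM and lectin receptors 8 added up as higher and 2 were opposed with Aβ42 higher. Of the 20 NF-kB targets these counts were 7 and 4. The shares of all genes were 1.60% and 3.66%. Of the 2830 genes whose average Aβ42 effect passed as higher, 320 added up and 729 were opposed. Ptges and Nfkbie, among the 7, did not pass on AE1-329 alone (0.15 ± 0.11 and 0.068 ± 0.076).

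Among the genes that add up as lower, Rasgrp3 lay at 9.67, 9.62 and 9.66 with Aβ42 and at 11.02, 10.88 and 10.81 with AE1-329, each below its vehicle arrays and above its combined arrays. Its single changes were -2.35 ± 0.094 and -1.10 ± 0.094 and their sum of -3.45 was near the combined -3.67. Chn2, a GTPase-activating protein for Rac, went from 9.84, 9.67 and 9.69 to 7.85, 7.98 and 7.98 (-1.80 ± 0.066), and Arap2, one for Arf, from 9.31, 8.76 and 8.85 to 7.31, 7.25 and 7.20 (-1.72 ± 0.11). Both were lower in every combined array than in any vehicle array. With Aβ42 and AE1-329 alone Chn2 changed by -1.25 ± 0.066 and -1.44 ± 0.066, and Arap2 by -1.35 ± 0.11 and -1.39 ± 0.11. Their sums, -2.69 and -2.74, were larger falls than those with both agents, and the departures passed (0.89 ± 0.093 and 1.02 ± 0.16). Nanos1, an RNA-binding repressor gene, changed by -1.59 ± 0.065 with Aβ42, -1.78 ± 0.065 with AE1-329 and -2.22 ± 0.065 with both. Its sum of -3.38 was also a larger fall than the combined one, and the departure passed (1.16 ± 0.092). Plau fell by 1.36 with Aβ42 and by 1.50 with AE1-329, and the actin-linked gene Plekhh2 by 1.21 and 0.95. Of the 19 homeostatic genes 6 added up as lower, and of the 27 cell cycle genes 7, beside 1.80% of all genes. Of the 3638 genes whose average Aβ42 effect passed as lower, 359 added up.

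Opposed genes kept part of a change or lost it. Ch25h rose by 4.01 ± 0.15 with Aβ42, fell by 1.45 with AE1-329, and with both lay at 10.22, 9.98 and 10.22 against 7.34, 7.26 and 7.80 in vehicle. The combined arrays were above all vehicle arrays and below all arrays with Aβ42 alone (11.35, 11.54 and 11.53). Ccl4 changed by 2.32 ± 0.098, -1.38 ± 0.098 and 1.61 ± 0.098, and Ccl2 by 1.47 ± 0.16, -1.07 ± 0.16 and 0.66 ± 0.16 with Aβ42, AE1-329 and both. Tnf, raised by 3.95 ± 0.087 with Aβ42 and lowered by AE1-329 (-0.73 ± 0.087), was opposed too. Among the 30 type I interferon-stimulated genes 11 were opposed with Aβ42 higher, beside 3.66% of all genes. Of the 2830 genes whose average Aβ42 effect passed as higher, 729 were opposed. On Aβ42 alone 29 of the 30 rose, and on AE1-329 alone 0 passed in either direction. The mean of the list was 8.33, 8.53 and 9.21 in AE1-329 replicates 1, 2 and 3, so the third stood apart, and without it 18 were opposed with Aβ42 higher and still 0 passed on AE1-329 alone.

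In the other kind AE1-329 raised and Aβ42 lowered. Cytip lay at 6.96, 6.79 and 6.92 in vehicle, 6.10, 5.83 and 6.23 with Aβ42, 11.06, 11.31 and 11.09 with AE1-329 and 9.12, 9.28 and 9.39 with both, so the combined arrays stood between those of vehicle and AE1-329. Cnnm2, a gene of magnesium transport, changed by -0.71 ± 0.049, 1.97 ± 0.049 and 0.49 ± 0.049 in the same order of treatments. Nr4a2 rose by 2.19 ± 0.11 with AE1-329 and by 0.45 ± 0.11 with both, and Nr4a1 by 1.51 ± 0.075 and 0.84 ± 0.075. The palmitoyltransferase gene Zdhhc14 ended lower (-0.63 ± 0.074), and Hgf, the gene of hepatocyte growth factor, rose with AE1-329 (0.87 ± 0.077) and fell with Aβ42 (-2.50 ± 0.077) and with both (-1.72 ± 0.077). Of the 30 targets of cyclic AMP and CREB 11 were of this kind, beside 4.85% of all genes. Of the 1718 genes whose average AE1-329 effect passed as higher, 967 were of this kind.

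The promoters of Nr4a1 and Ch25h are shown because both hold the letters of the cyclic AMP response element, while AE1-329 raised one gene and lowered the other. They are the 250 bases before the start on build GRCm38.p6, at chr15:101266596-101266845 on the plus strand (Nr4a1) and chr19:34475149-34475398 on the minus strand (Ch25h), read 5′ to 3′ on the gene's strand. Capitals mark the core TGACG of the element or its reverse complement.
Nr4a1: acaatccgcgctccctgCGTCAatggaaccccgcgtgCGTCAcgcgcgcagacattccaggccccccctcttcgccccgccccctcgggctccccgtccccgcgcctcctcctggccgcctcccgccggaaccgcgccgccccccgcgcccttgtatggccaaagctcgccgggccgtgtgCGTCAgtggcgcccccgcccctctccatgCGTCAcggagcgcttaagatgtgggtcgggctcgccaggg
Ch25h: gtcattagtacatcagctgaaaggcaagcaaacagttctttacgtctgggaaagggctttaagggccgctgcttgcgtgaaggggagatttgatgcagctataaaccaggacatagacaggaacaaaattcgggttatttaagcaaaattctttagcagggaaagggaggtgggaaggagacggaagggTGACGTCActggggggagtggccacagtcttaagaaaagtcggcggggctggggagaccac
Nr4a1 holds 4 such cores, which begin at -233, -213, -69 and -40, and Ch25h holds 2 that overlap at -61 to -54 as the full palindrome TGACGTCA. Over the promoters of the genes tested 21.4% held the core and 2.02% the full palindrome. Of 38 promoters found for 23 of the cyclic AMP and CREB targets 18 held the core. The interferon response element, searched on both strands as GAAA, any 2 bases and GAAA, was in 9 of 27 promoters of 22 type I interferon-stimulated genes and in 2.86% of the promoters of the genes tested.

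Cancelled genes are the opposed genes whose 95% interval of the combined change lay within -0.5 to 0.5. There were 1293 of them, 537 with Aβ42 higher and 756 with AE1-329 higher. The name covers a small net change as well as none that passed, since 244 of them still passed in the combined comparison, 87 higher and 157 lower, Clec7a (-0.28) among them. Cdk6, a kinase of the G1 phase, lay at 10.28, 10.45 and 10.41 in vehicle, 11.77, 11.74 and 11.79 with Aβ42, 9.34, 9.29 and 9.34 with AE1-329 and 10.52, 10.51 and 10.48 with both. The single agents moved it by more than 1 log2 unit each way. The combined arrays lay just above all vehicle arrays, and the combined interval was 0.002 to 0.23. For Rasgef1b, an exchange factor gene that Toll-like receptors induce, the changes were 0.71 ± 0.075, -0.75 ± 0.075 and -0.002 ± 0.075, and for the growth regulator Myc 0.63 ± 0.091, -0.99 ± 0.091 and 0.058 ± 0.091, with Aβ42, AE1-329 and both. Pdgfb, a growth factor gene, changed by 1.24 ± 0.11, -0.75 ± 0.11 and -0.17 ± 0.11. Ccl12, a monocyte chemokine gene, lay at 7.19, 7.32 and 7.43 with Aβ42 and at 5.79, 5.76 and 5.99 with both, beside 5.66, 5.75 and 6.08 in vehicle. Here AE1-329 alone did not pass (-0.27 ± 0.10, adjusted p = 0.127), beside an average AE1-329 effect of -0.87.

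Cancelled genes with AE1-329 higher included Pde7b, a cyclic AMP phosphodiesterase gene. It lay at 6.78, 6.76 and 7.02 in vehicle, 6.17, 6.00 and 6.47 with Aβ42, 8.74, 8.55 and 8.73 with AE1-329 and 6.85, 6.96 and 6.94 with both, so that the combined and vehicle arrays overlapped. Pdk2, an inhibitor of pyruvate dehydrogenase, changed by -1.23 ± 0.093, 0.92 ± 0.093 and -0.17 ± 0.093 with Aβ42, AE1-329 and both, and Adssl1, an enzyme of the purine nucleotide cycle, by -0.75 ± 0.063, 1.24 ± 0.063 and -0.010 ± 0.063. Cenpa, the centromeric histone gene, and Ctla2b, a protease inhibitor-like gene, had combined intervals of -0.45 to 0.17 and -0.14 to 0.19.

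**Figure D4:**
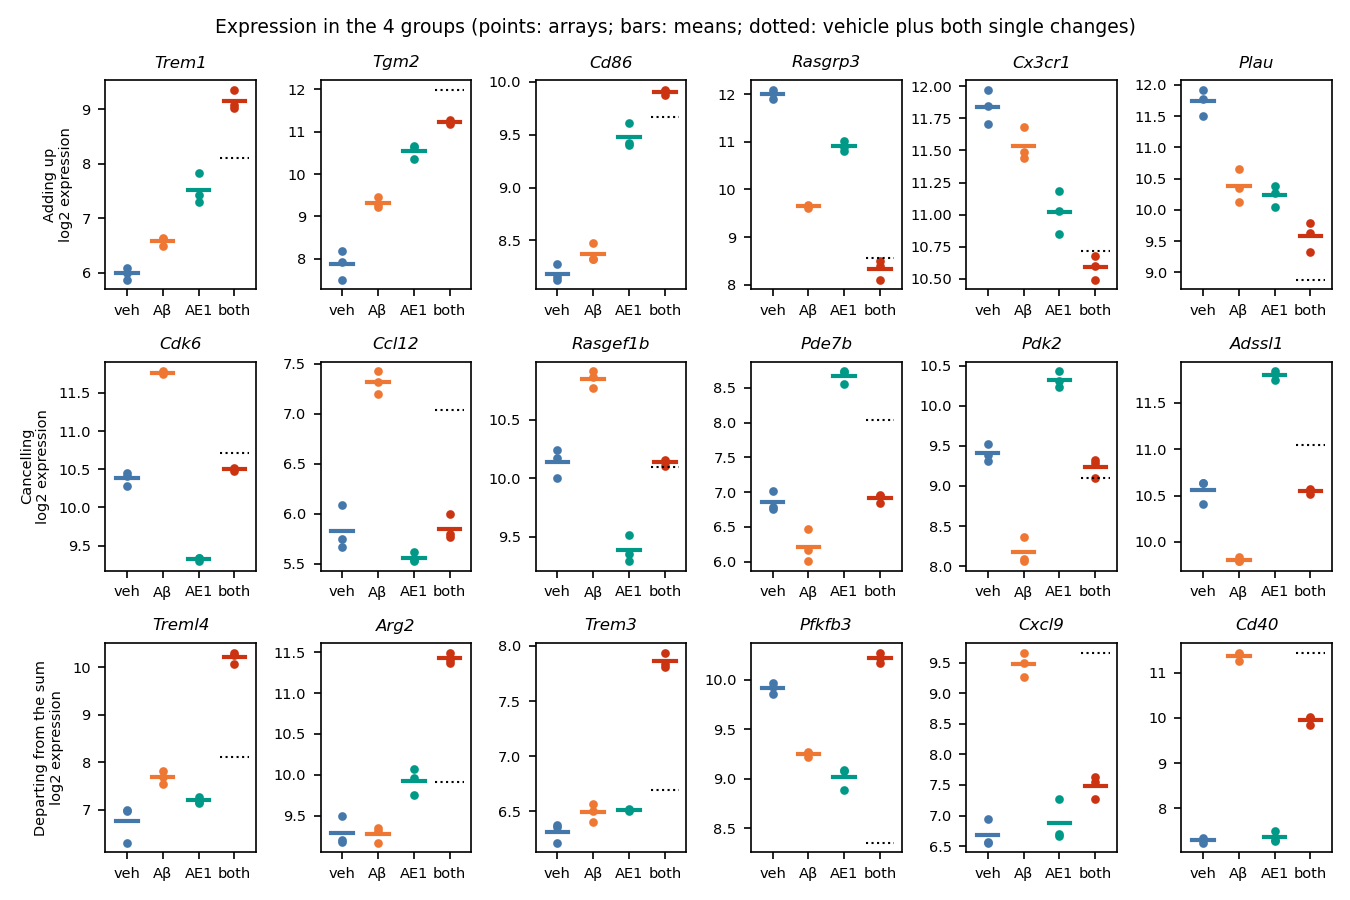
Log2 expression (vertical axis, a separate range for each gene) of 18 genes in vehicle, Aβ42, AE1-329 and both; points are arrays, bars group means, and the dotted line is the vehicle mean plus both single changes. Rasgrp3 lies near its dotted line, Cdk6 lies close to its vehicle level, Arg2 lies above its line by 1.51 and Cxcl9 below its line by a difference of -2.18.

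The combined change departed from the sum of the single changes in 389 genes, 1.95% of those tested, 206 above the sum and 183 below it. Of these, 23 above and 23 below departed by at least 1 log2 unit. Of the 4221 genes that passed in the combined comparison 174 departed above and 140 below. With the litter as a block 677 genes departed, and 246 to 557 when 1 array was left out, with 246 without Aβ42 replicate 2, 254 without Aβ42 replicate 3 and 254 without AE1-329 replicate 2.

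Departures above the sum included myeloid receptors and metabolic enzymes. Arg2 lay at 9.49, 9.21 and 9.18 in vehicle, 9.32, 9.35 and 9.16 with Aβ42, 9.96, 9.75 and 10.07 with AE1-329 and 11.50, 11.37 and 11.40 with both. Aβ42 alone left its arrays among those of vehicle (-0.014 ± 0.096), AE1-329 alone raised it (0.64 ± 0.096), and the departure was 1.51 ± 0.14 (limma, adjusted p = 0.000103). Pfkfb3, which stimulates glycolysis, lay at 9.93, 9.86 and 9.97, 9.22, 9.26 and 9.27, 9.07, 8.88 and 9.09 and 10.22, 10.17 and 10.28 in the same order. Each agent alone lowered it and both together raised it, a departure of 1.87 ± 0.088 (adjusted p = 6.17e-07). Treml4 departed by 2.10 ± 0.21, Spic by 1.60 ± 0.18, Tarm1, an activating receptor gene of myeloid cells, by 1.43 ± 0.16 and Adgb, the androglobin gene, by 2.10 ± 0.19. Adgb fell with each agent (-1.02 and -0.57) and rose with both (0.51 ± 0.14), a rise lost without combined replicates 1 (adjusted p = 0.0752) or 3 (0.0677) or vehicle replicate 2 (0.0659). Of the 17 cholesterol biosynthesis genes 4 departed above the sum and 0 below, and on the single agents 3 rose and 1 fell with Aβ42 and 1 rose and 2 fell with AE1-329.

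Departures below the sum were led by genes that Aβ42 raised and that rose less with both agents. Cxcl9, an interferon-induced T cell attractant, lay at 6.94, 6.55 and 6.57 in vehicle, 9.65, 9.27 and 9.50 with Aβ42, 6.66, 6.71 and 7.27 with AE1-329 and 7.54, 7.28 and 7.62 with both. AE1-329 alone did not pass (0.19 ± 0.16), with 1 of its arrays above all vehicle arrays, and with Aβ42 present the level was about 2 log2 units lower, a departure of -2.18 ± 0.23 (adjusted p = 0.000286). Cd40 had the same pattern, with 7.31, 7.34 and 7.23, 11.27, 11.41 and 11.45, 7.28, 7.29 and 7.50 and 9.84, 9.99 and 10.02 and a departure of -1.49 ± 0.11 (adjusted p = 3.69e-05). The protease gene Adamts4 departed by -1.76 ± 0.20, the interferon-induced genes Mx2 and Gbp7 by -1.56 ± 0.30 and -1.46 ± 0.29, and Edn1, the endothelin-1 gene, by -1.39 ± 0.19. The departures of Mx2 and Gbp7 each did not pass in 5 alternatives, among them those without Aβ42 replicates 2 or 3 or combined replicates 1 or 2 (adjusted p from 0.0532 to 0.0632 for Mx2 and from 0.055 to 0.0692 for Gbp7). Among the 30 type I interferon-stimulated genes 7 departed below the sum and 0 above, and without AE1-329 replicate 3 it was 4 below and 0 above, with -1.30 ± 0.24 for Mx2 (adjusted p = 0.0194) and -1.21 ± 0.23 for Gbp7 (0.0234). The rise of Mx2 with both agents (0.81 ± 0.21) was lost without combined replicate 3 (adjusted p = 0.0691) or vehicle replicate 1 (0.0603).

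In 640 genes the combined comparison passed while neither agent alone did, 350 higher and 290 lower. A single comparison that misses the threshold does not show that the agent had no effect. Trem3 is the clearest case, at 6.35, 6.37 and 6.21 in vehicle, 6.56, 6.51 and 6.40 with Aβ42, 6.50, 6.52 and 6.51 with AE1-329 and 7.81, 7.83 and 7.94 with both, and its departure of 1.17 ± 0.087 passed (adjusted p = 3.93e-05). Outside the combined group all its arrays lay below the array medians, so its small single changes, and with them its departure, have no known accuracy. The glycoprotein gene Tpbg (0.92 ± 0.17), the lipid droplet gene Hilpda (0.82 ± 0.13) and the receptor kinase gene Grk5 (0.81 ± 0.090) rose with both, with departures that did not pass (0.16 ± 0.23, 0.30 ± 0.18 and 0.33 ± 0.13), and Sprr2e rose by 0.79 ± 0.10. Those that fell included Themis2, a signalling adaptor gene of myeloid cells, which went from 10.60, 11.02 and 11.16 to 9.66, 9.88 and 10.07 (-1.05 ± 0.14), Fcgr1, which went from 10.65, 11.06 and 11.20 to 9.71, 9.94 and 10.27, and Arhgap27 (-0.71 ± 0.13). Groups apart from vehicle were a condition for naming the genes of this paragraph, and the vehicle arrays of these genes that fell spread widely. Bco2, a carotenoid-cleaving enzyme gene (-0.67 ± 0.079), and the orphan receptor gene Gpr176 (-0.67 ± 0.15) also fell.

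Ptger4 lay at 9.26, 9.04 and 9.19 in vehicle, 9.03, 8.99 and 9.14 with Aβ42, 8.20, 8.08 and 8.05 with AE1-329 and 8.44, 8.57 and 8.54 with both. AE1-329 lowered it (-1.05 ± 0.070), Aβ42 alone did not pass (-0.11 ± 0.070, adjusted p = 0.309), and the combined change lay above the sum by 0.52 ± 0.099 (adjusted p = 0.0161). That departure did not pass without the second replicate of the combined group (adjusted p = 0.052), of Aβ42 (0.0563) or of AE1-329 (0.0529). Ptger2, the other receptor of prostaglandin E2 that raises cyclic AMP, fell with Aβ42 alone (-0.56 ± 0.087) and stood at 7.03, 7.13 and 7.03 with both against 7.01, 6.94 and 7.19 in vehicle, an overlap, with a departure of 0.68 ± 0.12 (adjusted p = 0.011).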

How the data were processed

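RNA of 12 cultures of primary mouse microglia was measured on Affymetrix Mouse Gene 1.0 ST arrays. The deposited values are log2 expression, 1 per probe set and array, with values from 2.79 to 13.95. Per the submitters' processing notes RMA and Partek 6.5 were used, but not at which step, so the log2 scale rests on the range of the values. The genome build is not given in the sources used here, nor is any filter or adjustment for litter. Groups and replicate numbers came from the labels. Of 35556 probe sets 21789 carried 1 gene symbol, 1621 several and 12146 none, and 21698 of the first kind matched RefSeq (GRCm38.p6) by gene ID. Each of 19938 genes was represented by its probe set with the highest mean, a choice that arose for 999 genes. No further normalization was done.

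All 12 arrays entered 1 linear model of 4 group means (limma 3.58.1 under R 4.3.3, with lmFit followed by eBayes), which left 8 residual and 4.54 prior degrees of freedom. This model leaves the pairing by litter unused. With the litter as a block 2039 genes were higher and 2733 lower with both agents, more than in the main fit. Tests were two-sided, with Benjamini-Hochberg adjustment over all genes and a threshold of 0.05. The departure from the sum is the interaction contrast of the 4 means. The fit, with its calls of the combined change, the average effects and the departure, was tried on simulated arrays that had no litter effect. The interval rule for cancelled genes was not applied to them. Replicate numbers stand for litters, since the design text makes 3 litters the replicates of each treatment. Deviations from the group means of arrays with the same number had a mean correlation of 0.326 over 18 pairs (0.004 to 0.538, with 17 over 0.1), beside -0.162 over 36 pairs of different numbers. Deviations cancel each other within a group, so the second value largely follows from the first and is no separate support for the pairing.

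Named genes were the 12 highest and 12 lowest combined changes with groups apart, the leading genes of each class by the smaller of both average effects, and the leading departures. Also named were the largest changes with groups apart that passed in the combined and in neither single comparison. The 4 members of each list with the smallest p, and a fixed set of receptors, cytokines and cyclic AMP targets, were added. Predicted genes, olfactory receptors and small RNAs were not named. The comparison, gene lists and members were chosen with earlier results of these data known. Alternatives were the 6 arrays alone, the litter as a block, both together, a filter on dim genes, the mean over probe sets, all probe sets, a new quantile normalization, a mean-variance trend with robust prior, other bounds for cancelled genes, and each array left out in turn.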

Additional observations from a re-analysis of the deposited data

Results flagged for a closer look

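The difference between the combined change and the sum of the single changes, which asks whether AE1-329 moved a gene by the same amount with and without Aβ42, passed for 206 genes above and 183 below the sum (limma, adjusted over all genes). The genes of the text for which it passed are given here with that difference in log2 units. Some calls were lost in alternatives. Of 18 run, this held in 12 for Mmp14, 9 for Ccl4, 7 for C5ar1, 6 for Clec4e and for Il1b, and 5 for Gbp7. It held in 4 for Il1rn, 3 for Ptger4 and 1 for Cxcl3. Of 17 run, it held in 13 for Kdr, 11 for Sprr2e, 10 for Bco2 and 5 for Mx2.

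Receptors and surface proteins of myeloid cells stood on both sides, with a higher combined level than the sum for Treml4 (2.10), Tarm1 (1.43), Trem3 (1.17) and Trem1 (1.04) and a lower one for Olr1 (-1.28), Cd40 (-1.49), Clec4e (-0.76), Axl (-0.64) and C5ar1 (-0.38). Among cytokines, chemokines and their antagonist the value was above the sum for Cxcl3 (1.08), Il1rn (0.84) and Ccl4 (0.66) and below it for Cxcl9 (-2.18), Il15 (-1.28), Ccl12 (-1.19) and Il1b (-1.12). Il1b and Clec4e already lay at means of 12.43 and 11.89 with Aβ42 alone, where the highest value of the data was 13.95. Whether the top of the scale limited their combined level was not tested. In the prostaglandin pathway it was above for Ptges (0.82), Ptger2 (0.68), Hpgds (0.60) and Ptger4 (0.52). Interferon-linked genes were below, namely Mx2 (-1.56), Gbp7 (-1.46) and Irf1 (-0.91). Genes of metabolism and redox balance were above for Pfkfb3 (1.87), Arg2 (1.51), Hif1a (0.62), Hsd17b7 (0.60), Hmgcs1 (0.52) and Gsr (0.44) and below for Adssl1 (-0.50) and Bco2 (-0.54). Of the regulators of signalling, transcription and the cell cycle, Spic (1.60), Nanos1 (1.16), Arap2 (1.02), Chn2 (0.89), Ccne2 (0.89), Tnfaip3 (0.89), E2f1 (0.69) and Dusp16 (0.54) lay above and Nr4a2 (-1.35), Pde7b (-1.12), Cytip (-1.05) and Rgs2 (-0.92) below. The remaining genes above the sum were Adgb (2.10) and Sprr2e (0.71), and those below were Kdr (-0.64), Mmp14 (-0.56), Tnfaip2 (-0.59), Cnnm2 (-0.77), Herpud1 (-0.81), Edn1 (-1.39) and Adamts4 (-1.76).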

How the results depend on the processing

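Of 10 counts over all genes, 9 stayed within 1.5 times their value under every alternative run for them. The count of genes that departed from the sum, 389, rose to 677 with the replicate block and lay between 246 and 557 when 1 array was left out. With the replicate block 4201 of the 4221 genes of the combined comparison still passed in the same direction. In the 6 arrays alone 3058 did, and when 1 array was left out 3306 to 4033 did, the fewest without combined replicate 1. Cancelled genes numbered 863 with a bound of 0.3 and 1571 with a bound of 1. No direction reversed. Of 50 departures of single genes 13 lost their call in at least 1 alternative, those of Kdr, Mmp14, Sprr2e and Bco2 in 10 or more, and the cause was not tested. Signal over background was not used, so the accuracy of dim genes is unknown, for departures from the sum as well as for folds.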
